A study of Mus musculus with 12 samples.

Results

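ROR- cells of the mouse strains BALB/c and B6 were compared on 5 of the 12 arrays of a study of invariant natural killer T (iNKT) cells. The members are the arrays labelled ROR_minus, 3 from BALB/c and 2 from B6, and all 5 were used. The study's other arrays hold iNKT17 cells (3 BALB/c, 2 B6) and gamma-delta 17 cells (2 B6). ROR- is used here as the labels give it, for cells that they set apart from iNKT17 cells. Each group differs from the other in strain alone as far as the labels go: they mention no engineered allele and call growth and treatment not relevant. Age, sex, organ and sorting gate are not given, and nothing says whether arrays of a group came from separate animals. The p-values therefore measure only the spread between arrays, which may be technical. That spread is pooled within the groups of all 12 arrays. A gene that varies in iNKT17 or gamma-delta 17 cells can thus go uncalled although its ROR- arrays lie close together. The labels describe RNA from frozen tissue while naming the source as cells.

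iNKT cells are T cells with a nearly fixed receptor that sees lipids on CD1d, and they develop under the transcription factor PLZF, encoded by Zbtb16. Their main subsets are NKT1 cells, with T-bet, interferon-gamma and natural killer (NK) receptors, NKT2 cells, with GATA3 and interleukin 4, and NKT17 cells, which make interleukin 17. ROR- iNKT cells, if they leave out NKT17 cells, would hold NKT1 and NKT2 cells, and BALB/c mice are known for a larger NKT2 and B6 mice for a larger NKT1 compartment.

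The label was held against marker genes first. Cd3e, a chain of the T-cell receptor complex, read 11.52, 11.53 and 11.30 (log2 value) in the BALB/c ROR- arrays 1 to 3 and 11.38 in each B6 ROR- array, and Zbtb16 read 9.27, 9.14 and 8.89 against 8.66 and 8.61. The mean level of 29 type 17 genes was 5.82, 6.68 and 5.74 in BALB/c and 5.80 and 5.85 in B6, against 7.90 to 8.36 in the iNKT17 arrays, so the ROR- arrays lay below every iNKT17 array. BALB/c array 2 stood apart from the other ROR- arrays: Il23r, the interleukin 23 receptor, read 7.0 there against 2.93 to 3.67 in the other 4, and Il22 read 5.46 against 1.56 to 2.96. Their part in the strain differences below was not tested, and without that array 151 genes were called in place of 203, of which 134 were among the 203. Within a group, arrays correlated at a mean Pearson r of 0.976 to 0.985 across genes.

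Of 16667 genes tested, 203 (1.22%) differed between the strains in ROR- cells at an adjusted p below 0.05 (limma with Benjamini-Hochberg adjustment). Of these, 63 (0.378% of the genes tested) were higher and 140 (0.84%) lower in BALB/c, and 126 differed at least 2-fold, which is 1 on the log2 scale. All 203 had BALB/c arrays that did not overlap the B6 arrays, as did 26.3% of all genes tested, and the median difference over all genes tested was 0.01. Without the first or the second B6 array, 78 or 68 genes were called, of which 70 and 67 were among the 203, and without BALB/c array 3, 132 were, so the number of calls rests on these arrays. A difference in bulk RNA cannot tell fewer cells of a type from less RNA per cell. Leaving out predicted and clone-named genes, the largest rises in BALB/c were the guanylate-binding protein gene Gbp2b and the protease gene Ctse. The largest falls were a group of Trim genes, NK receptor genes and Gpnmb. Of the genes left out, Gm4759 (-3.98) and Gm1966 (-3.81) were also among the largest falls. A gene is called dim where its mean is below 3.45, the 30th percentile of the named probe sets; 16 of the 203 were dim in a ROR- group, and their fold changes rest on values near background.

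**Figure D1:**
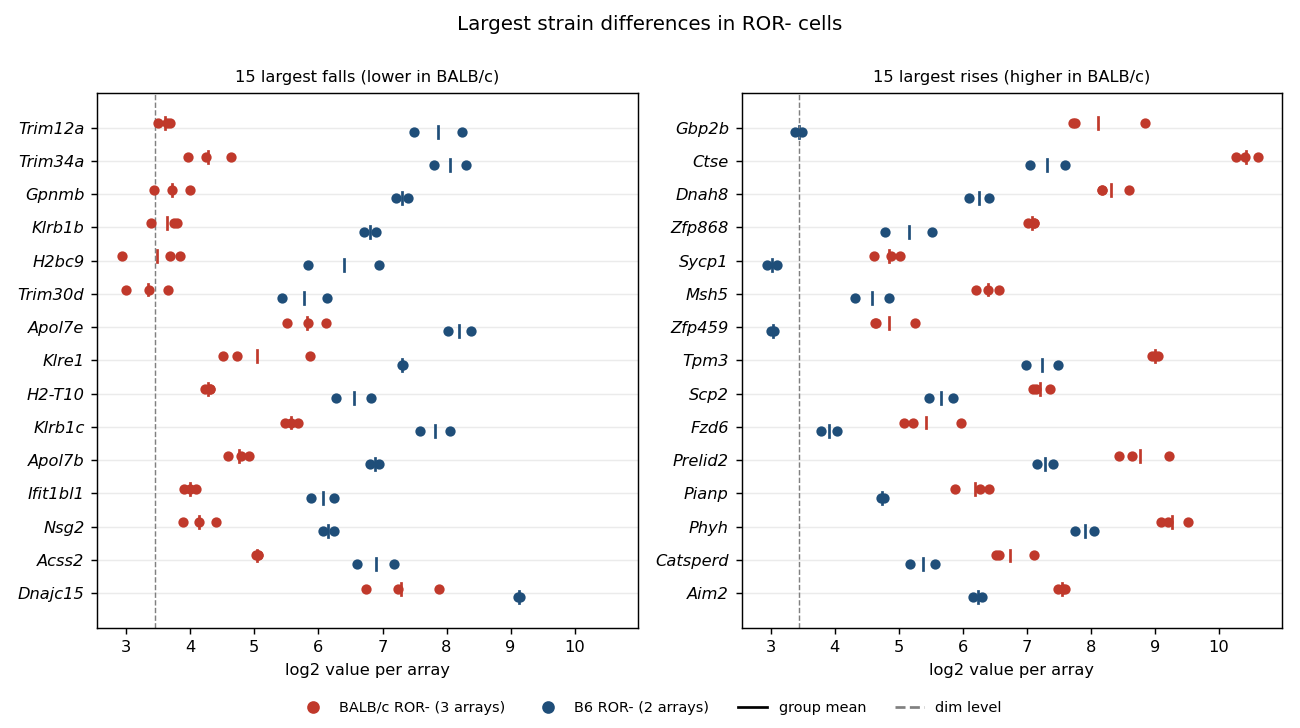
Log2 value (horizontal axis) in each ROR- array for 15 falls (left) and 15 rises (right) in BALB/c against B6. They are the largest after leaving out genes kept apart below and predicted or clone-named genes. Points are arrays (red BALB/c, 3; blue B6, 2), short lines are group means and the dashed line is the dim level of 3.45; in each of these genes the red and blue points do not overlap.

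Gbp2b, an interferon-induced GTPase of the guanylate-binding protein family that acts against intracellular pathogens, had the largest rise. It read 8.84, 7.71 and 7.75 in BALB/c and 3.38 and 3.50 in B6, where it sat at the dim level. The difference was 4.66 ± 0.28 (log2, SE; adjusted p = 7.93e-06), and in iNKT17 cells it was 4.16 ± 0.28. Among 13 guanylate-binding protein and immunity-related GTPase genes tested, Gbp2b was the 1 called, against 1.22% of all genes tested. The list's median difference was 0.00.

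The Trim12/Trim30/Trim34 cluster, tripartite-motif genes related to the retroviral restriction factor TRIM5, fell. Trim12a read 3.69, 3.49 and 3.63 in BALB/c and 8.24 and 7.48 in B6, a difference of -4.26 ± 0.36 (adjusted p = 1.19e-04). Trim34a read 4.64, 4.24 and 3.96 against 8.31 and 7.81 (-3.78 ± 0.30, adjusted p = 8.79e-05). Trim30d read 3.36, 2.99 and 3.65 against 6.13 and 5.43 (-2.44 ± 0.30, adjusted p = 0.00173). All 3 were at or not far above the dim level in BALB/c and clearly above it in B6. Of 7 genes of the cluster tested, these 3 fell, against 0.84% of all genes tested, and none rose. Trim12c differed by 1.05 ± 0.28 (adjusted p = 0.123) and Trim30a by -0.23 ± 0.24 (adjusted p = 0.747). The other probe set of Trim34a differed by -3.07. In iNKT17 cells Trim12a (-2.92) and Trim34a (-3.17) were also lower in BALB/c, while Trim30d differed by -0.54 there (adjusted p = 0.5), and the difference between cell types was not called (adjusted p = 0.26).

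Promoters of 4 of these genes and of Apobec3 are shown because they carry the letters of an interferon-stimulated response element, the site through which interferons raise antiviral genes. Apobec3 encodes a cytidine deaminase that restricts retroviruses; it was added after its values were seen, 7.59, 7.48 and 7.54 in BALB/c against 9.39 and 9.22 in B6 (-1.77 ± 0.16, adjusted p = 2.1e-04). Each sequence runs from 250 bases before to 30 bases after the annotated start, 5′ to 3′ on the gene's strand, from RefSeq on GRCm38.p6, and capitals mark the element's letters, GAAA, any 2 bases, then GAAA, read on either strand. The positions are chr3:142594597-142594876 (plus strand) for Gbp2b, chr7:104315466-104315745 (minus) for Trim12a, chr7:104244207-104244486 (plus) for Trim34a, chr7:104507820-104508099 (minus) for Trim30d and chr15:79892158-79892437 (plus) for Apobec3.
Gbp2b: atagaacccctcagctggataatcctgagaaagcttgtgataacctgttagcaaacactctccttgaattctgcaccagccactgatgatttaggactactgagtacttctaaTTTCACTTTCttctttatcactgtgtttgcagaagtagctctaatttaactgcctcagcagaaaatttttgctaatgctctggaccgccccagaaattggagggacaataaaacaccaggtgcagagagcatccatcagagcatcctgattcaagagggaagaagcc
Trim12a: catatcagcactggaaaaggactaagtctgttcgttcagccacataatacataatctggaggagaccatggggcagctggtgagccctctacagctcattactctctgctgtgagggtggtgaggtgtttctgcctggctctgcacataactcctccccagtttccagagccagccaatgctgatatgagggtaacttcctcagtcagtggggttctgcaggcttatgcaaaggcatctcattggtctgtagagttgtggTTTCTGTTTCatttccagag
Trim34a: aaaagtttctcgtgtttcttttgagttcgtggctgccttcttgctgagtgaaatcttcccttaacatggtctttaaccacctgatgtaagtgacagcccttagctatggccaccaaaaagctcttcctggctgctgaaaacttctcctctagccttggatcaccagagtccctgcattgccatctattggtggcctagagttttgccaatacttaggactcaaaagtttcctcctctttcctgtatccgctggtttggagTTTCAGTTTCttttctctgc
Trim30d: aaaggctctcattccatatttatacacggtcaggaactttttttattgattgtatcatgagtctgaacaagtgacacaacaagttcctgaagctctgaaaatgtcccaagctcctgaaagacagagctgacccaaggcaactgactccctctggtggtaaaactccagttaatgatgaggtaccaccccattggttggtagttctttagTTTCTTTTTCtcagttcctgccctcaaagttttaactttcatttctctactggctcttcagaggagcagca
Apobec3: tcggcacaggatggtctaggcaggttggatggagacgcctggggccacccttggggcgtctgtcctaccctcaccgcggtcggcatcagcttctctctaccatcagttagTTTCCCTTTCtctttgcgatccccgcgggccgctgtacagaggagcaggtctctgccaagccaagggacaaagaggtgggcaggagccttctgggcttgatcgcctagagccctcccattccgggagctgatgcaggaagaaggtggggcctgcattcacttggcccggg
The match begins at base -137 in Gbp2b, -140 in Apobec3, -41 in Trim30d, and 11 bases into the transcript in Trim12a and in Trim34a, all counted from the start. These are reference sequences and not reads of either strain's cells. Over the table's windows, 250 bases before to 50 after each start, the letters occurred in 943 of 27025 promoters (3.49%), in 388 of 12917 genes tested (3%), in 11 of 110 called genes lower in BALB/c (10%) and in 3 of 51 higher (5.88%). The gamma-interferon activation letters TTCNNNGAA occurred in 7.15% of the genes tested, 6.36% of the lower and 5.88% of the higher genes. The motif was chosen after the called genes were seen, the match to letters is a description, and no test was made of these shares.

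Of 30 interferon-induced genes tested, 2 fell and none rose, against 0.84% of all genes tested that fell. In the list 24 genes differed downward, 12 had an unadjusted p below 0.05 (11.9% of all genes tested did), and the median was -0.30. Ifit1bl1, a member of the interferon-induced tetratricopeptide family, read 3.99, 4.09 and 3.90 in BALB/c and 6.25 and 5.89 in B6 (-2.07 ± 0.15, adjusted p = 4.2e-05). Oasl2, an antiviral 2′-5′ oligoadenylate synthetase relative, read 3.71, 3.20 and 3.24 against 4.66 and 5.23 (-1.56 ± 0.25, adjusted p = 0.00953) and was not called with the cell cycle level as a covariate or without the second B6 array. Common responders named for scale, after their values were seen, were not called: Isg15 differed by 0.05 ± 0.17 and Irf7 by -0.28 ± 0.17. The list is not complete. Outside it, and also taken after their values were seen, Eif2ak2 (-1.25, adjusted p = 6.2e-04), Epsti1 (-1.42, adjusted p = 0.00293) and Plscr1 (-1.11, adjusted p = 0.0388) were called lower. Gbp2b, likewise outside it, was called higher. Epsti1 is among the genes kept apart below, and Plscr1 was not called with the cell cycle covariate. Aim2, a sensor of cytosolic DNA, was the 1 of 7 Ifi200-family genes called, against 0.378% of all genes tested that rose. It read 7.56, 7.48 and 7.59 in BALB/c and 6.30 and 6.16 in B6 (1.31 ± 0.20, adjusted p = 0.00768). The call was lost without B6 array 1 or 2 and with the cell cycle covariate.

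Major histocompatibility complex (MHC) class I genes, which present peptides to CD8 T cells and engage NK receptors, fell in part: 3 of 18 were called lower, against 0.84% of all genes tested, and none higher, with a list median of -0.19. H2-T10, a non-classical class I gene, read 4.30, 4.22 and 4.30 in BALB/c and 6.82 and 6.27 in B6 (-2.27 ± 0.18, adjusted p = 8.79e-05; -2.44 in iNKT17 cells). H2-K1, the classical K molecule, read 9.26, 9.56 and 9.36 against 10.71 and 10.35 (-1.14 ± 0.16, adjusted p = 0.00412), a call lost without B6 array 1. Nlrc5, the transactivator of class I genes, read 6.67, 6.33 and 6.23 against 7.41 and 7.30 (-0.94 ± 0.19, adjusted p = 0.0345), a call lost in 8 of 18 other settings, among them leaving out B6 array 1 or 2 or BALB/c array 2 or 3. None of 9 class II genes was called. The BALB/c and B6 class I alleles differ in sequence, and whether the probes read them alike was not tested.

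NK receptor genes fell in numbers. They mark NKT1 cells as well as NK cells and lie together in the NK gene complex. Of 10 genes of the CD94/NKG2 list, 4 fell and none rose (median -0.57), and of 9 Klra and Klrb genes, 3 fell and none rose (median -0.38), against 0.84% of all genes tested that fell. Klrb1b, an inhibitory NKR-P1 receptor, read 3.38, 3.74 and 3.79 in BALB/c and 6.90 and 6.72 in B6 (-3.17 ± 0.16, adjusted p = 2.28e-06), and it differed by -4.27 in iNKT17 cells. Klrb1c, which encodes the NK1.1 antigen, read 5.68, 5.47 and 5.57 against 8.06 and 7.59 (-2.25 ± 0.33, adjusted p = 0.00561) and was not called without the first B6 array. In iNKT17 cells Klrb1c differed by -0.02, and the difference between cell types was not called (adjusted p = 0.198). Klra5, a Ly49 receptor gene, differed by -0.38 ± 0.26 (adjusted p = 0.6). Gene copies of these families resemble each other, so the signal of a probe set can mix them.

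Within the CD94/NKG2 list the fall did not extend to every member. Klre1 read 4.51, 4.73 and 5.87 in BALB/c and 7.32 and 7.30 in B6 (-2.27 ± 0.31, adjusted p = 0.00331), and Klri2 read 3.35, 3.44 and 3.38 against 5.06 and 5.07 (-1.67 ± 0.16, adjusted p = 3.42e-04); their products pair with each other in receptors on the cell surface. Klrk1, the activating receptor NKG2D, read 6.67, 7.36 and 6.47 against 8.16 and 8.41 (-1.45 ± 0.23, adjusted p = 0.00906), and Klrc2, the activating NKG2C chain, read 3.40, 3.50 and 3.92 against 5.36 and 4.78 (-1.46 ± 0.25, adjusted p = 0.0152). Klrd1, the CD94 chain shared by NKG2 receptors, was not called, at 10.06, 10.18 and 10.42 against 10.09 and 9.90 (0.23 ± 0.47, adjusted p = 0.888). Klrc1, the inhibitory NKG2A chain, differed by -0.98 ± 0.27 (adjusted p = 0.133). The call on Klrk1 was lost without B6 array 1 or 2, that on Klrc2 without B6 array 1 or BALB/c array 2, and those on Klrk1, Klrc2 and Klre1 with only the ROR- arrays in the fit; Klri2 and Klrb1b kept theirs in all 18 settings.

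**Figure D2:**
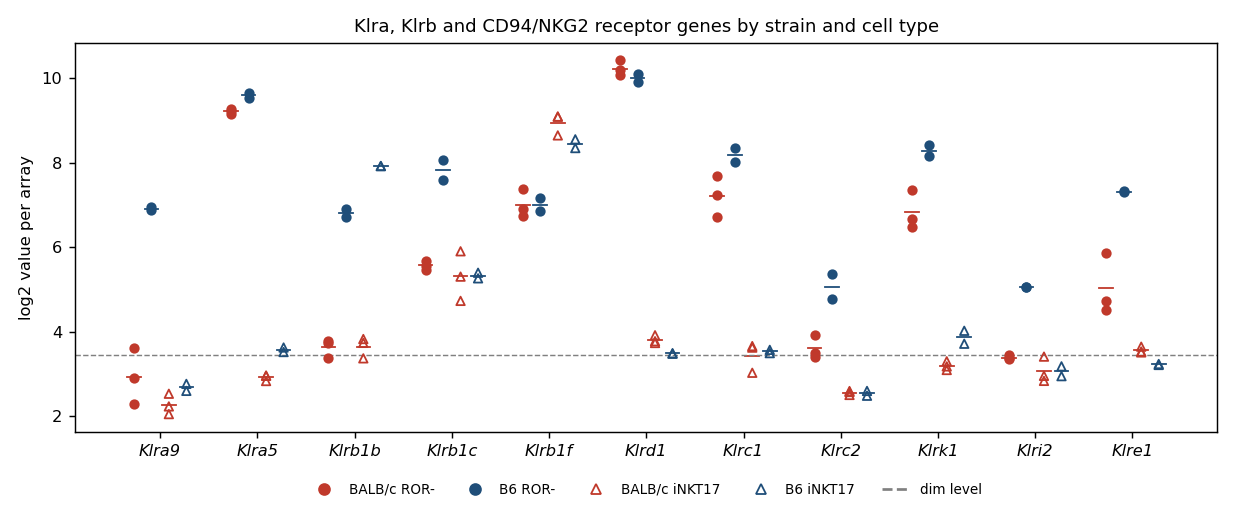
Log2 value (vertical axis) of 11 NK receptor genes in ROR- arrays (filled circles) and iNKT17 arrays (open triangles), red for BALB/c and blue for B6, with group means as short lines and the dim level of 3.45 dashed. Klrd1 and Klra5 were bright in ROR- cells of each strain, Klra9, Klri2 and Klre1 were higher in B6 ROR- cells, and Klrb1b was higher in B6 in each cell type.

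Markers of NK and conventional CD8 cells were set beside these receptors. Of 14 such genes tested, 4 were lower in BALB/c, against 0.84% of all genes tested, and none was higher. The 4 were Klra9, Klre1, Klri2 and Fcer1g. The list's mean level was 5.24, 4.90 and 5.11 in BALB/c and 5.90 and 6.03 in B6, so it moved with the receptors, in part because it shares 3 of them. Ncr1, which encodes the NK receptor NKp46, read 4.73, 4.22 and 4.18 against 4.74 and 3.94, and Eomes read 4.19, 4.03 and 3.83 against 3.83 and 3.97, and neither was called. Fcer1g, the gamma chain that carries signals of Fc and NK receptors, read 7.35, 7.65 and 7.05 against 8.95 and 8.95 (-1.60 ± 0.28, adjusted p = 0.0157), and it was not called with the cell cycle level as a covariate or without BALB/c array 3 or B6 array 1 or 2.

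The transcription factors and cytokines that separate NKT1 from NKT2 cells were not called. Tbx21, which encodes T-bet, read 7.52, 8.04 and 6.89 in BALB/c and 7.78 and 7.67 in B6 (-0.24 ± 0.24, adjusted p = 0.738). Ifng ranged widely, at 8.19, 8.82 and 5.54 against 6.57 and 8.66 (-0.10 ± 0.82, adjusted p = 0.983), so a large difference could not be seen. Gata3 differed by -0.05 ± 0.18 (adjusted p = 0.95) and Il4 by 0.19 ± 0.19 (adjusted p = 0.721). Zbtb16 was higher in every BALB/c array, but its difference of 0.46 ± 0.18 was not called (adjusted p = 0.325), and in iNKT17 cells it was 0.98 ± 0.18 (adjusted p = 0.019); the difference between cell types was not called (adjusted p = 0.999). Of 28 type 1 and cytotoxic genes, Fasl, the death ligand, fell (-1.47 ± 0.24, adjusted p = 0.0121) and none rose (median -0.15). Fasl was not called without B6 array 1 or with the cell cycle covariate. The granzyme gene Gzmc, which that list does not count, was also called lower (-1.14, adjusted p = 0.0349), and it too was not called with the cell cycle covariate. Of 20 type 2 genes, Il4ra fell and none rose (median -0.06). Over all genes tested, 0.84% fell. Cd4 read 8.31, 8.47 and 7.82 in BALB/c and 7.30 and 7.33 in B6 (0.88 ± 0.17, adjusted p = 0.031); it was among the genes kept apart below because they followed the heat shock level (r = 0.77), and its call was lost in 7 of 18 other settings, among them leaving out B6 array 1 or 2 or BALB/c array 1 or 2.

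Of 36 cytokine receptor genes, 3 fell and none rose (list median -0.11), against 0.84% of all genes tested that fell. Il21r, the interleukin 21 receptor, read 5.48, 5.92 and 6.35 in BALB/c and 7.60 and 7.82 in B6 (-1.80 ± 0.29, adjusted p = 0.0105). Its neighbour Il4ra, the alpha chain shared by the receptors for interleukins 4 and 13, read 7.78, 8.20 and 7.89 against 8.81 and 8.78 (-0.84 ± 0.17, adjusted p = 0.0363). Ifngr1, the ligand-binding chain of the interferon-gamma receptor, read 10.09, 9.51 and 9.79 against 10.79 and 10.58 (-0.89 ± 0.18, adjusted p = 0.0403). The calls on Il4ra and Ifngr1 lay near the threshold and were lost in 9 and 10 of 18 other settings, each B6 array and BALB/c array 3 among those left out, and that on Il21r was lost without B6 array 1 or 2. Among 35 listed cytokine and chemokine ligands, Fasl and Tnfsf11, the ligand RANKL, fell and none rose. Tnfsf11 differed by -0.77 ± 0.16 (adjusted p = 0.0465), a call lost in 11 of 18 settings, among them leaving out any 1 ROR- array. Ifna4, an interferon-alpha gene that the list does not count, was also called lower (-1.18, adjusted p = 0.0289).

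Outside these families, Gpnmb, a transmembrane glycoprotein of myeloid and pigment cells, read 3.99, 3.71 and 3.44 in BALB/c and 7.20 and 7.39 in B6 (-3.58 ± 0.18, adjusted p = 2.28e-06). It was the 1 of 19 myeloid markers called, against 1.22% of all genes tested. The list's mean was 4.98, 4.91 and 4.94 in BALB/c and 5.10 and 5.05 in B6. Csf1r and Lyz2, myeloid genes taken after their values were seen, read 3.50 to 3.88 and 3.03 to 3.82 over the 5 arrays. The apolipoprotein L genes Apol7e (6.12, 5.51 and 5.83 against 8.38 and 8.02; -2.38 ± 0.24) and Apol7b (-2.11 ± 0.23) fell together. Acss2, which makes acetyl-CoA from acetate, read 5.02, 5.06 and 5.06 against 7.19 and 6.61 (-1.85 ± 0.18, adjusted p = 3.5e-04). Dnajc15, a mitochondrial co-chaperone, fell by 1.84 ± 0.26, and Nsg2, a vesicle protein gene of neurons, fell by 2.01 ± 0.27. Gpnmb, Apol7e, Apol7b, Acss2 and Nsg2 were called in all 18 other settings, and Dnajc15 was not without B6 array 1 or 2.

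Among rises, Ctse, which encodes the endolysosomal aspartic protease cathepsin E, read 10.61, 10.40 and 10.26 in BALB/c and 7.60 and 7.04 in B6 (3.10 ± 0.21, adjusted p = 2.3e-05; 4.09 in iNKT17 cells). Tpm3, a tropomyosin of the actin skeleton, read 9.0, 8.95 and 9.05 against 6.98 and 7.49 (1.76 ± 0.14, adjusted p = 8.79e-05), but the gene's other probe set differed by -0.09. The rise is thus shown only for the probe set used, and its smallest size over the settings was 0.84. What each probe set reads was not tested. Several rises were of genes best known from germ cells: Dnah8, a dynein heavy chain of sperm tails, at 8.59, 8.17 and 8.18 against 6.09 and 6.40 (2.07 ± 0.18), Msh5, a meiotic recombination factor, at 6.21, 6.57 and 6.39 against 4.31 and 4.85 (1.81 ± 0.22), Sycp1, a synaptonemal complex protein (1.82 ± 0.24), and Catsperd, a subunit of the sperm calcium channel (1.36 ± 0.19). These were picked out by eye from the 15 rises, so their number is no test. Sycp1 was dim in B6, at a mean of 3.02, so its rise starts near background. The peroxisomal lipid genes Scp2, a sterol carrier (1.54 ± 0.17), and Phyh, which starts the oxidation of phytanic acid (1.37 ± 0.16), rose, and the other Phyh probe set differed by 1.17. The remaining rises were the zinc finger genes Zfp868 (1.92 ± 0.19) and Zfp459 (1.81 ± 0.25), the Wnt receptor Fzd6 (1.52 ± 0.22), Prelid2 (1.49 ± 0.20) and Pianp, a ligand of the inhibitory receptor PILRα (1.44 ± 0.19). Zfp459 was also dim in B6, at a mean of 3.03. Of these 15 rises, Ctse, Gbp2b, Dnah8, Zfp868, Msh5, Tpm3, Scp2, Pianp and Phyh were called in all 18 other settings. The call was lost without B6 array 1 for Fzd6, Prelid2 and Sycp1, without B6 array 2 for Catsperd and without B6 array 1 or 2 for Zfp459.

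Over all called genes, 18 had more than 1 probe set. Of their 22 other probe sets above the dim level, 17 differed in the same direction and 9 of these by at least 50% of the size. Whether strain differences in the sequence under the probes alter these values was not tested.

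Cell cycle level differed widely between arrays and was kept apart. The mean level of 67 cell cycle genes was 6.87, 5.22 and 5.40 in BALB/c arrays 1 to 3 and 6.78 and 7.77 in B6 arrays 1 and 2, so BALB/c array 1 lay above B6 array 1 and the groups overlapped. All 67 genes were lower on average in BALB/c, with differences from -2.70 to -0.32, and 39 had an unadjusted p below 0.05, yet none was called (smallest adjusted p = 0.234; 1.22% of all genes tested were called). The list's median difference was -1.45 and ran from -2.02 without B6 array 1 to -0.86 without B6 array 2. Mki67, a proliferation marker, read 8.99, 6.51 and 7.14 against 8.70 and 9.68 (-1.64 ± 0.73, adjusted p = 0.403), and with the cell cycle level as a covariate the difference was 0.04. That covariate is itself a mean of cell cycle genes, so a value near 0 is no test of Mki67. Replication histone genes had a median of -0.79 and 1 call in 16, H4c9 (-2.36 ± 0.50, adjusted p = 0.0486), which was lost in 13 of 18 settings. H2bc9, another histone gene that was not on that list, read 3.83, 3.68 and 2.93 against 5.84 and 6.95 (-2.92 ± 0.53, adjusted p = 0.0208) and was not called with the covariate, or without BALB/c array 3 or B6 array 1 or 2.

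Heat shock level varied more between arrays than between strains. The mean of 25 heat shock genes was 7.70, 8.03 and 7.09 in BALB/c and 7.43 and 7.74 in B6, a difference of 0.02. Hspa1b, an inducible Hsp70 gene, spanned 8.12, 11.31 and 4.93 against 5.28 and 6.95 (2.01 ± 1.74, adjusted p = 0.687), while Hspa8, the constitutive member, differed by 0.05 ± 0.11. Immediate-early genes, which rise quickly on cell handling or activation, averaged 7.92, 8.88 and 7.66 against 7.78 and 8.02, again with BALB/c array 2 highest, and none of 21 was called. Hspe1, the mitochondrial chaperonin Hsp10, was the 1 heat shock gene called and did not track the list: it read 8.26, 8.18 and 8.01 against 10.31 and 10.30 (-2.16 ± 0.20, adjusted p = 2.31e-04) and differed by -2.11 in iNKT17 cells.

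**Figure D3:**
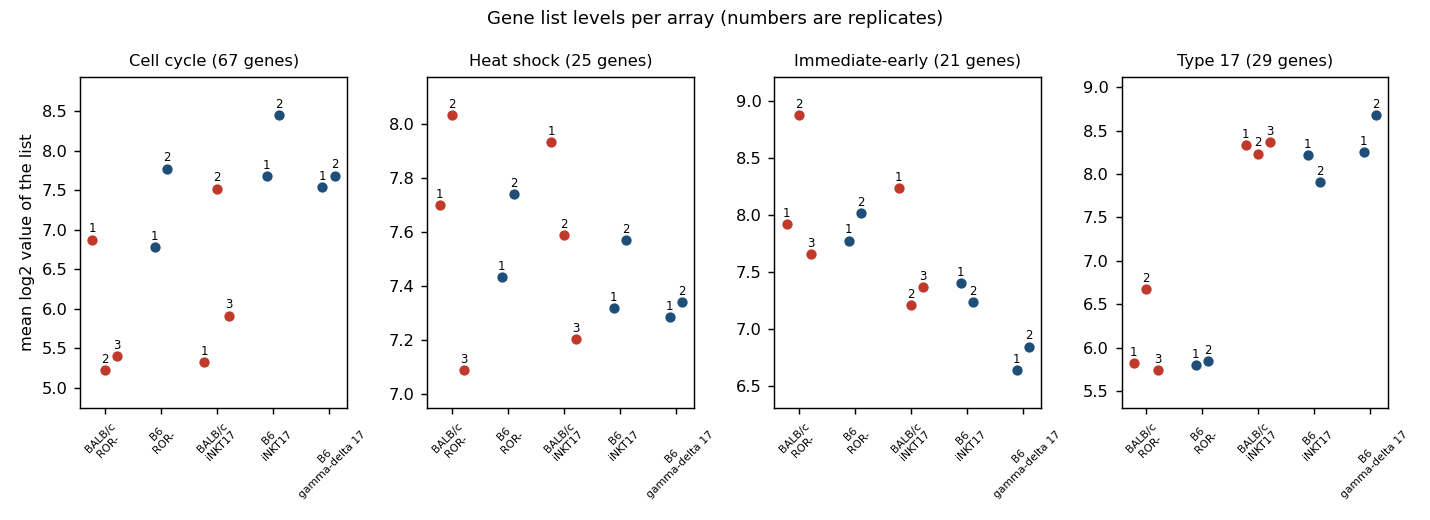
Mean log2 value (vertical axes, each panel on its own scale) of the cell cycle, heat shock, immediate-early and type 17 genes in each of the 12 arrays, by group, red for BALB/c and blue for B6, with replicate numbers above the points. Among ROR- arrays, BALB/c arrays 2 and 3 were lowest for the cell cycle, and BALB/c array 2 was highest for heat shock, immediate-early and type 17 genes.

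A called gene was kept apart when its within-group deviations over the 12 arrays correlated at 0.7 or more in size with either level and in the direction of its strain difference, or when it was on one of those lists. This held for 23 of the 203 (11.3%; 14.3% of all genes tested met the same rule), of which 15 followed the cell cycle and 6 the heat shock level, and Hspe1 and H4c9 were on a list. It left 180 genes, 55 higher and 125 lower. For heat shock the direction came from a list difference of 0.02, with a list median of -0.05, too small to set a direction. Klrk1 (r = 0.77), Nfu1 (0.77), Cutc (0.76), Tmem128 (0.74) and Eif2ak2 (0.71) passed the limit but were not kept apart. These were lower in BALB/c. The 6 are therefore not all the called genes that tracked the heat shock level. For the cell cycle level, Igfbp7 (r = -0.84), Sycp1 (0.76), Rps9 (-0.73), Prelid2 (0.73), H2-K1 (-0.72) and 2810001G20Rik (-0.71) also passed the limit. They were not kept apart because their strain differences ran opposite to the direction that the rule asks for. The largest kept apart was Klra9, a Ly49 receptor gene (r = -0.83 with the heat shock level) at 2.90, 2.30 and 3.62 in BALB/c and 6.87 and 6.95 in B6 (-3.97 ± 0.29, adjusted p = 4.34e-05), whose difference with the heat shock level as a covariate was -3.95. Rnf32, a ring finger gene, read 6.86, 8.16 and 7.39 against 5.39 and 5.0 (2.27 ± 0.36), and 1.57 with the cell cycle covariate. Epsti1, an interferon-responsive gene, read 7.88, 7.44 and 7.21 against 8.85 and 9.0 (-1.42 ± 0.19), and -1.13 with that covariate. The other large ones were A530010L16Rik (2.32), Rwdd3 (1.46), Gm973 (1.26), Vmn1r74 (1.24), Ggh, which removes glutamates from folates (-1.54), and Gsr, glutathione reductase (-1.02). The other Rwdd3 probe set differed by 0.41, and Vmn1r74 was dim in B6 at a mean of 2.90. With the cell cycle covariate the calls on Gm973, Vmn1r74 and Gsr were lost, while those on Rnf32, Epsti1 and Rwdd3 were kept. Without B6 array 2 the calls on Rnf32, Epsti1, Rwdd3, Gm973, Vmn1r74 and Gsr were lost, and without B6 array 1 all of these but Epsti1, whereas Klra9, A530010L16Rik and Ggh were called in all 18 other settings.

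With the cell cycle level as a covariate, 91 of the 180 genes not kept apart and 9 of the 23 kept apart were still called, and every one of the 203 kept its sign. The median size was 0.967 of the size without the covariate in the 180 and 0.747 in the 23. With the heat shock level as a covariate, 168 and 19 were called, and with both, 98 and 10.

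**Figure D4:**
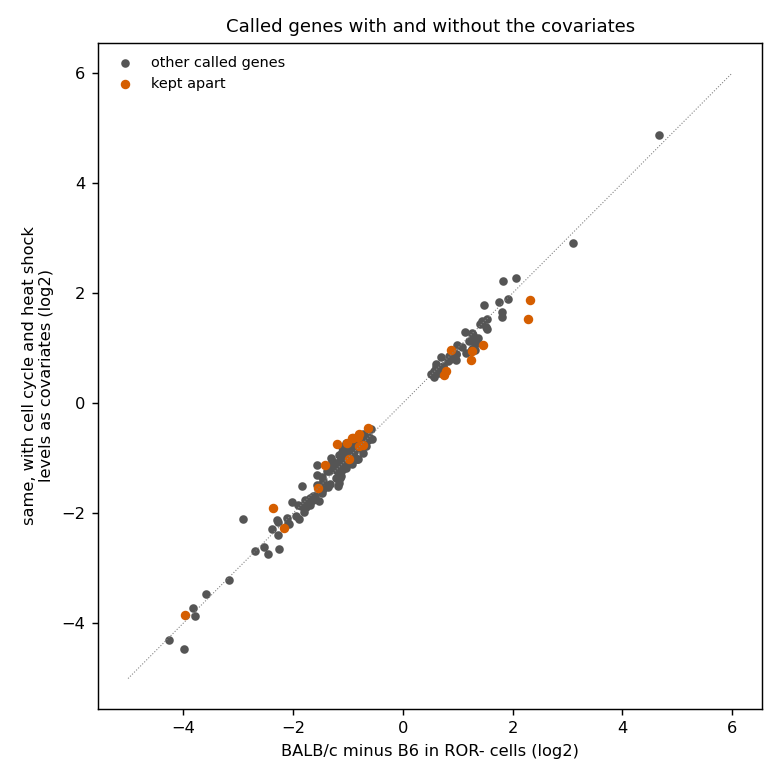
BALB/c minus B6 difference in ROR- cells (log2, horizontal axis) of the 203 called genes against the same difference with cell cycle and heat shock levels as covariates (log2, vertical axis), with the genes kept apart in orange and the line of equality dotted. Points lie near the line, and 98 of 180 and 10 of 23 genes were called with the covariates.

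The strain difference in iNKT17 cells was measured on arrays that the ROR- comparison did not use, though both share the estimate of spread. There 247 genes (1.48%) were called, 112 higher (0.672%) and 135 lower (0.81%). Of the 203 ROR- calls, 89 (43.8%) were called the same way in iNKT17 cells, 35 higher and 54 lower, which is 36% of the iNKT17 calls, and none was called the opposite way. The sign was the same for 185 (91.1%) against 65.9% of all genes tested. Of the 30 genes with the largest differences, 18 were called the same way and 29 had the same sign; Klre1 was the exception, at 0.34 in iNKT17 cells. Across the genes tested the differences of both cell types correlated at r = 0.674, as a description, since genes are not independent replicates. The correlation and the shares of equal sign include genes that follow the cell cycle level. The cell cycle list was lower in BALB/c in both cell types, with medians of -1.45 in ROR- and -1.84 in iNKT17 cells. With that level as a covariate, 86 iNKT17 genes were called. Its part in the agreement was not tested.

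**Figure D5:**
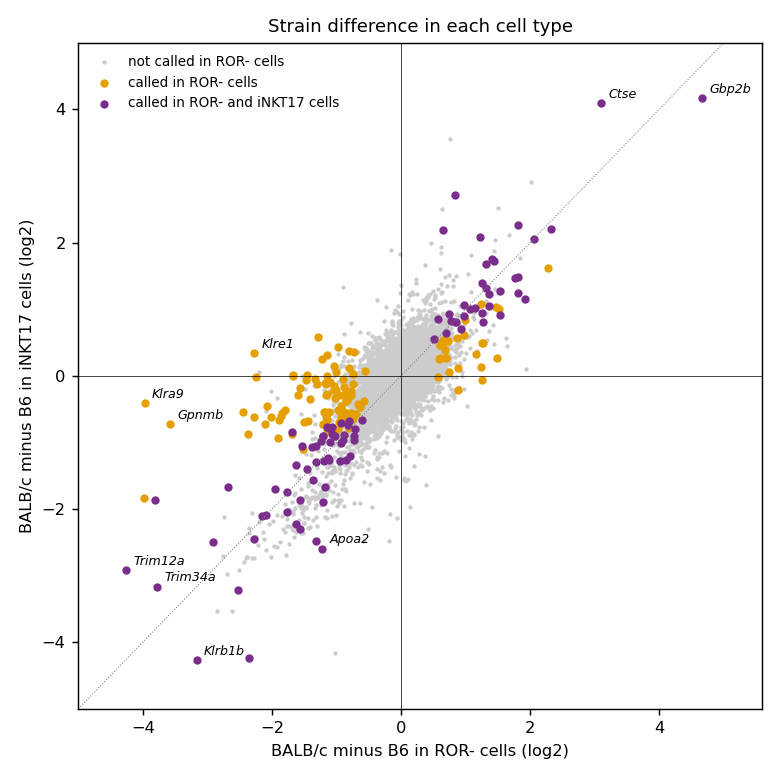
BALB/c minus B6 difference (log2) in ROR- cells (horizontal axis) and in iNKT17 cells (vertical axis) for the 16667 genes tested, in grey where not called in ROR- cells, orange where called in ROR- cells and purple where called in both; the dotted line marks equal differences. Gbp2b, Ctse, Trim12a, Trim34a and Klrb1b lie far from 0 on both axes, while Klra9, Gpnmb and Klre1 lie close to 0 on the vertical axis.

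The remaining 114 ROR- calls were not called in iNKT17 cells, but a difference between the cell types was itself called for 5 of them, and for 14 genes (0.084%) in all. Those 5 were Gpnmb, Klra9, Klri2, Ifit1bl1 and Fcrl1. Gpnmb read 3.86, 3.84 and 3.44 in BALB/c and 4.59 and 4.29 in B6 iNKT17 cells. Klra9 (2.05 to 2.77), Klri2 (2.84 to 3.41) and Ifit1bl1 (1.77 to 2.39) lay below the dim level in all iNKT17 arrays, where a strain difference could hardly be measured. Fcrl1, an Fc receptor-like gene of B cells that was kept apart as following the heat shock level (r = -0.72), read 4.11, 4.11 and 4.39 in BALB/c and 5.17 and 5.20 in B6 ROR- cells (-0.98 ± 0.16, adjusted p = 0.00927; not called without B6 array 1 or 2) and differed by 0.43 in iNKT17 cells. Mmp14, a membrane metalloproteinase, and BC064078 were called higher in BALB/c in both cell types, by 0.65 and 0.83 in ROR- and 2.18 and 2.71 in iNKT17 cells. Their ROR- calls were lost in 8 and 12 of 18 other settings, among them the cell cycle covariate and leaving out B6 array 1 or 2 or BALB/c array 2 or 3. Without B6 ROR- array 2 no interaction was called, and without array 1, 1 was.

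Some called genes lay near each other. In the RefSeq gene order, with at most 3 tested genes from one to the next, 40 of the 203 (19.7%) formed 17 runs, and 16 of the runs, with 38 genes, went the same way throughout. The share expected for any 203 genes was not computed. The largest run was Trim34a, Trim12a, Gm15133 and Trim30d. Runs in the NK gene complex were Klre1, Klrk1 and Klrc2, then Klri2, Klra9 and Styk1, and Klrb1c with Klrb1b. Others included Dnajc15, Epsti1 and Tnfsf11; Vps52, AA388235 and H2-K1; Il4ra and Il21r; Apol7b and Apol7e; Apoa2 and Fcer1g; and Perp and Ifngr1, all lower in BALB/c. Glo1 and Dnah8, and Gm973 and Bmpr2, were runs that were higher. Genes of a run outside the naming rule were named after their values were seen.

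None of 34 listed oxidative phosphorylation genes was called, against 1.22% of all genes tested, though 31 differed downward (median -0.25). The list does not hold every respiratory chain gene. Ndufa12, a subunit gene outside it, was called lower (-1.12, adjusted p = 0.0302), and its other probe set differed by -1.11. With the cell cycle covariate Ndufa12 was not called (adjusted p = 0.149). Pdk1, which restrains the conversion of pyruvate to acetyl-CoA, was the 1 of 18 glycolysis genes called (-1.45 ± 0.27, adjusted p = 0.0252), and its other probe set differed by -0.66. Rps9 was the 1 of 33 ribosomal protein genes (-0.66 ± 0.12), and its other probe set differed by -0.19; both calls were lost without B6 array 1 or 2 or BALB/c array 2, that on Pdk1 also without BALB/c array 3 and with the cell cycle covariate, and that on Rps9 with the mean of its probe sets. Nnt, the mitochondrial transhydrogenase that C57BL/6J mice are known to carry as a deletion mutant, read 6.10, 5.89 and 5.88 in BALB/c and 5.40 and 5.22 in B6 (0.65 ± 0.15, adjusted p = 0.0624). Ighm, the IgM heavy chain gene, was the 1 of 5 B cell markers called (-1.17 ± 0.22, adjusted p = 0.0302), and 2 of its other 3 probe sets above the dim level differed upward, by 0.06 and 0.11; the call was lost without B6 array 1 or 2 or BALB/c array 1 or 3. Ly6g5b fell (-1.68 ± 0.33, adjusted p = 0.0349) as the 1 of 10 Ly6-family genes, a call lost in 9 of 18 settings, B6 array 1 or 2 left out among them. Ly6c2, taken after its values were seen, read 7.92, 7.55 and 8.14 against 10.69 and 10.54 and was not called (-2.75 ± 0.74, adjusted p = 0.127). The error of Ly6c2 pools the spread within all 5 groups of arrays and not that of the ROR- arrays alone. No gene was called among 28 of T-cell receptor signal response, 32 of egress and homing, 29 type 17, 12 SLAM-family, 8 GIMAP, 17 regulatory and follicular T-cell, 9 neutrophil and 17 epithelial genes. Cd5 (0.03 ± 0.15) and Egr2 (0.00 ± 0.22), which follow T-cell receptor signal strength, were not called.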

How the data were processed

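Total RNA was measured on Affymetrix whole-transcript arrays, 1 array a sample. The deposited values are log2 expression per probe set, made by the authors with the R package oligo, per the submitters' processing notes; that they are on a log2 scale was inferred from their range, and the background correction, summarisation and genome build were not given in the sources used here. Of 41345 probe sets, 23521 carry 1 gene symbol, 1814 several and 16010 none here; the brightest probe set by 12-array mean stood for each of 22180 genes (1082 had more than 1). Genes with at least 2 arrays above the 30th percentile (log2 3.45) were tested, and 5513 were set aside.

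A limma 3.58.1 group-means model (R 4.3.3, lmFit and eBayes) over all 12 arrays in 5 groups gave 7 residual and 4.5 prior degrees of freedom, with Benjamini-Hochberg adjustment over 16667 genes; the script was tested on simulated data. Errors are the model's standard errors. The number of arrays limits the precision. The members and gene lists were chosen with earlier results of these data known. Named genes are the 15 largest rises and falls among genes called with at least a 2-fold change, without overlap and not kept apart (23 clone-named or predicted genes left out), up to 4 called members of each list, the 5 largest each way of genes kept apart, all interaction calls, and 14 fixed genes. No set test was run. Other settings were another normalization, dim filter, choice of arrays, array weights, spread, probe set choice, covariates, replicate number as a block, and each array left out.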

Additional observations from a re-analysis of the deposited data

Results flagged for a closer look

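The strain difference (BALB/c minus B6, log2) differed between ROR- and iNKT17 cells by limma's interaction contrast for 14 genes, each given here as the ROR- difference minus the iNKT17 difference with its adjusted p.

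In 7 the ROR- difference was itself called. Klra9 differed by -3.56 (adjusted p = 0.0134), Gpnmb by -2.86 (0.00334), BC064078 by -1.88 (0.0246), Klri2 by -1.67 (0.0364), Ifit1bl1 by -1.62 (0.0246), Mmp14 by -1.53 (0.0111) and Fcrl1 by -1.41 (0.0495). In the other 7 the ROR- difference was not called. Cxcl3, a neutrophil-attracting chemokine, differed by 3.15 (0.0458), Frmd5 by 2.29 (0.0447), the GTPase gene Gimap4 by -2.05 (0.0417), the adhesion receptor gene Cd2 by 1.91 (0.0447), Krt24 by 1.79 (0.0447), Serpinb6b by -1.57 (0.0447) and Epas1 by -1.52 (0.0447). Cd2 read 9.39 to 9.49 in BALB/c and 9.66 and 9.59 in B6 ROR- cells, and 5.25 to 5.79 against 7.54 and 7.49 in iNKT17 cells. Serpinb6b was lower in BALB/c ROR- cells (-0.78, adjusted p = 0.0524) and higher in BALB/c iNKT17 cells (0.79, adjusted p = 0.0437). No explanation was tested for any of these.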

How the results depend on the processing

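The 203 ROR- calls became 82 with only the ROR- arrays in the fit, 115 with the cell cycle level and 128 with cell cycle and heat shock levels as covariates, and 68 to 259 with 1 ROR- array left out. Normalization, dim filter, array weights, spread and probe set choice gave 184 to 218, with 31.0% of calls higher in the main setting, 24.5% with each array centred on its median and 37.3% after quantile normalization. The 247 iNKT17 calls became 549 with array weights, 86 with the cell cycle level and 83 with both covariates, and 77 to 530 with 1 array left out. The 14 interaction calls became 8 after quantile normalization, 8 with the heat shock covariate, and 0 to 15 with 1 array left out. Of the 61 named genes called, 37 stayed called with only the ROR- arrays and 30 to 55 with 1 array left out, and 25 did in each of 18 settings; over 1421 gene values, 1236 kept their side of the threshold, 180 lost a call, 5 gained one and none of a called gene reversed. The causes were not tested, beyond fewer arrays. Genes kept apart were 10 at a correlation limit of 0.8 and 48 at 0.6. Replicate numbers shared between strains were not taken to pair the arrays. Deviations of same-numbered ROR- arrays correlated at -0.387 and -0.072. With 2 B6 arrays the B6 deviations mirror each other, so BALB/c array 1 gave -0.387 with B6 array 1 and 0.387 with B6 array 2. These values therefore cannot decide whether the arrays were paired. With the replicate block 139 ROR-, 178 iNKT17 and 6 interaction calls were made, and 50 of the 61 named genes stayed called.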
